A study of Nothobranchius furzeri with 185 samples.

Results

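The comparison described here set tail fin clips taken at 20 weeks of age against tail fin clips taken at 10 weeks from the same turquoise killifish, Nothobranchius furzeri, in the fish that went on to die youngest. The members were chosen by the sample titles alone: 15 short-lived fish (LS1 to LS10 and LS41 to LS45), each clipped at both ages, gave 30 of the 185 libraries of the series. None of the fish received a treatment, and the labels give neither their sex nor their strain. Their ages at death lay between 28.7 and 36.4 weeks, with a median of 32.6 weeks, so the second clip was taken between the first clip and the end of a short life. The middle-lived group (15 fish, dead at 45.1 to 50.3 weeks) and the long-lived group (15 fish, dead at 57.3 to 71.9 weeks) were clipped at the same ages. They are used to show where the short-lived fish differ. Their libraries were also fitted in the same model, so the scaling, the filter on loci and the estimate of spread draw on them. Titles mark 10 fish of each group as batch 1 and 5 as batch 2, and both clips of a fish carry the same batch. Fits of 1 batch alone held the fin libraries of that batch from every lifespan group, and the values given from them are the change in short-lived fish. Because the 20-week clip came from a fin that had already been clipped at 10 weeks, age and clipping history cannot be told apart. The labels do not say which part of the fin was taken at each age, so age and the part clipped cannot be told apart either.

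The killifish is a short-lived annual fish that passes through growth, adulthood and ageing within months, and its tail fin can be sampled without killing the animal. A teleost fin is a fold of skin supported by bony rays: osteoblasts lay down the ray bone, dermal fibroblasts make the collagen between and around the rays, an epidermis rich in keratin covers them, and black, yellow and silvery pigment cells lie in the dermis. At the fin margin, stiff fibrils called actinotrichia, made of collagen and actinodin proteins, support the growing edge. Clipped fins grow back from a proliferating bud, and position genes such as the hox and zic families keep marking the body axes in adult fins and skin.

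Libraries held 23.08 to 46.51 M gene counts at 20 weeks (median 38.54 M) and 19.16 to 42.09 M at 10 weeks (median 29.97 M). CPM is the count per M of the library's total, so that 3 counts correspond to at most 0.13 CPM in a 20-week library and 0.157 CPM in a 10-week library. Levels below are CPM scaled by TMM factors, given as the lowest, the median and the highest of the 15 fish unless a fish is named. The label was checked against markers of fin and of other tissues, here as plain CPM. The distal fin genes hoxa13a (33.2 to 78.3 CPM at 20 weeks, 30.2 to 57.6 CPM at 10 weeks) and hoxc13a (24.2 to 71.4 CPM and 25.5 to 79.2 CPM) stood above their medians of 1.55 and 0.062 CPM in the 40 skin libraries of the series. The skin libraries came from other fish of several ages, and some of those fish are labelled DMSO or rotenone. Wherever skin is used for comparison, these libraries are pooled, so tissue, age and treatment are not separated. Growth hormone gh1 had no read in any of the 30 libraries, and the liver genes serpina1 and fabp10a Nfu_g_1_010874 and the meiotic gene sycp1 stayed at or under 0.121 CPM. A second locus, fabp10a Nfu_g_1_012325, had 0.517 to 2.71 CPM at 20 weeks and 0.565 to 2.3 CPM at 10 weeks. Its median in the skin libraries was 0.469 CPM. The 20-week libraries of LS42 and LS45 stood apart from the others on the first axis of variation, with a mitochondrial share of 1.66% and 1.52% of counts where the other 13 had at least 2.52%. Reads of the fast muscle gene mylpfa, in TMM-scaled CPM, had a median of 0.0995 at 20 weeks and 0.123 at 10 weeks. They reached 140 and 69.6 CPM in the 10-week clips of LS42 and LS45, 10.7 CPM in the 20-week clip of LS6 and 9.51 CPM in the 10-week clip of LS1. In the skin libraries mylpfa lay between 4073 and 26680 plain CPM, so those libraries also held muscle RNA. Several list results are also given without LS42 and LS45, and most are not given without LS6 or LS1.

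Between the clips, 13 of 16 fibrillar collagens, 11 of 24 melanophore genes and 17 of 31 xanthophore and iridophore genes fell and none of these lists had an increase, the position genes zic1 and zic4 fell almost to 0 in 14 of 15 fish, and single genes such as tbx3 and hsp70.1 rose. Of 18828 loci tested, 1237 (6.57%) were called, which means an adjusted p under 0.05 in edgeR's quasi-likelihood test with Benjamini-Hochberg adjustment over all loci tested and each fish as its own block. Of these, 485 were higher at 20 weeks (2.58% of loci) and 752 were lower (3.99%). Changes are log2 fold changes, 20 weeks over 10 weeks, with their standard error, so that -1 is a level halved in the older clip. The called increases had a median of 0.47 and the called decreases a median of -0.64, while the median over all loci tested was -0.01. In single fish, between 68.6% (LS10) and 95.6% (LS43) of the called loci moved in the direction of the group. The calls were made with these fish in the fit, so part of that agreement is built in. With upper quartile factors in place of TMM 1260 loci (6.69%) were called and the split was 640 higher (3.4%) and 620 lower (3.29%), so the excess of decreases depends on the scaling. Without LS5 the calls were 1079 (5.72%), of which 529 were higher (2.8%) and 550 lower (2.92%). Without LS42 and LS45 they were 1160 (6.15%), of which 417 were higher (2.21%) and 743 lower (3.94%). The 30 libraries fitted alone gave 750 calls (4.22%), with 328 higher (1.84%) and 422 lower (2.37%), and DESeq2 gave 1805 (9.59%), with 800 higher (4.25%) and 1005 lower (5.34%). Without the fish block 804 were called (4.27%), with 243 higher (1.29%) and 561 lower (2.98%). These are bulk samples, in which fewer cells of a type and less RNA per cell cannot be told apart.

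**Figure D1:**
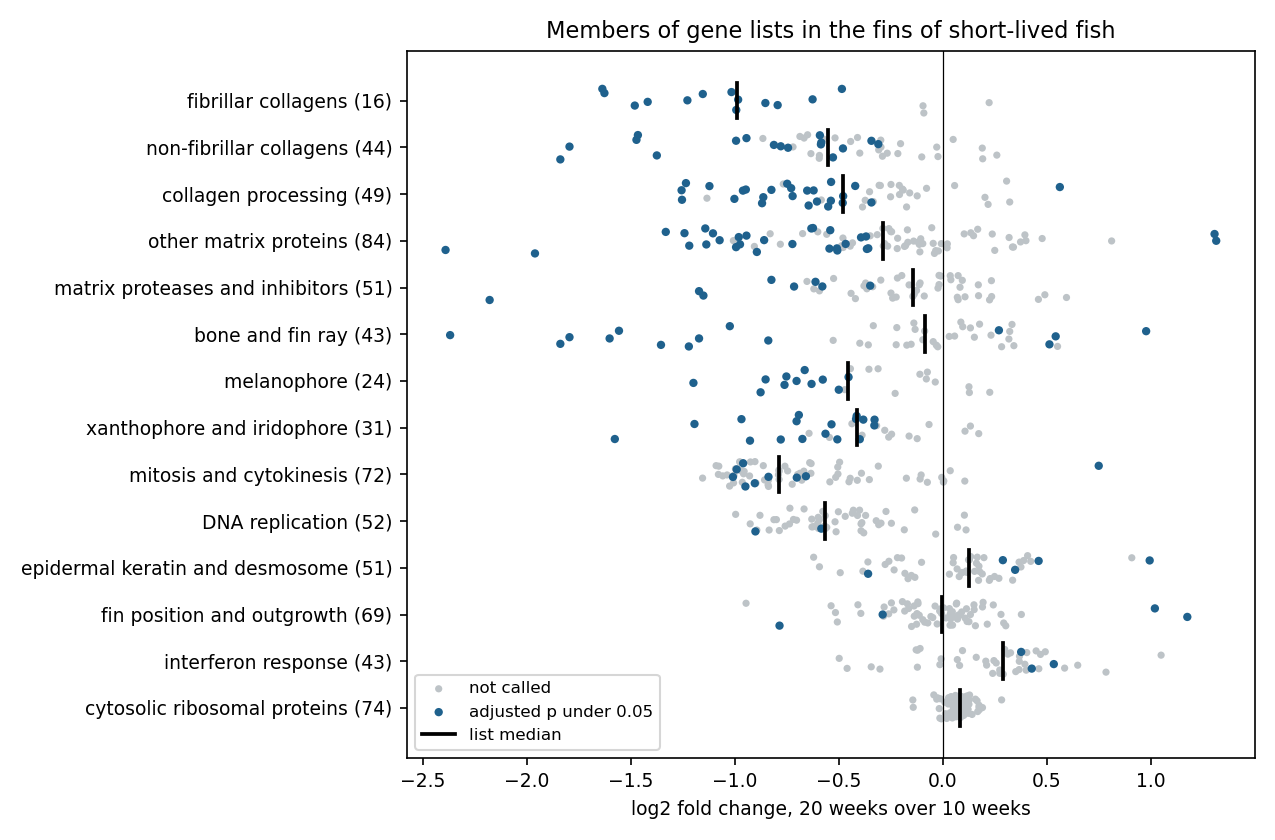
Log2 fold changes (20 weeks over 10 weeks, horizontal axis) of the tested members of 14 gene lists in short-lived fish, 1 point per locus, with called loci in blue and the list median as a bar. All called fibrillar collagens, melanophore genes and xanthophore and iridophore genes lie left of 0, and the cytosolic ribosomal proteins lie close to 0 with none called.

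The deepest change of all was in zic1, a zinc finger transcription factor gene that in medaka marks the dorsal side of the trunk and tail. In 14 fish zic1 lay between 0 and 0.0647 CPM at 20 weeks, with 5.11 CPM in the fifteenth, LS5, whereas at 10 weeks all 15 fish lay between 2.39 and 10.07 CPM (median 4.68). The ranges of the 14 fish do not overlap between the ages, and 8 of the 20-week libraries had no zic1 read. The change was -6.90 ± 0.50 (adjusted p = 1.48e-13) and -7.87 without LS5. Its chromosomal neighbour zic4, which acts with zic1 in the same medaka tissue, was at 0.524 CPM in LS5 and at most 0.0206 CPM in the other fish at 20 weeks, against 0.118 to 1.498 CPM at 10 weeks. zic4 changed by -4.93 ± 0.42 (adjusted p = 2.2e-09), and by -6.64 without LS5. In the 40 skin libraries, as plain CPM, zic1 lay between 1.72 and 8.41 with a median of 4.53. Thus 14 of the 20-week fins lay below the range of those libraries, which also held muscle RNA, and the 10-week fins overlapped it.

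The same pattern held in the other lifespan groups, where zic1 reached at most 0.329 CPM at 20 weeks in middle-lived fish and 0.322 CPM in long-lived fish, while the lowest 10-week values were 1.67 and 2.24 CPM. Of the 45 fish in the 3 groups, LS5 alone had more than 0.5 CPM of zic1 at 20 weeks. Over the 15 long-lived fish, zic4 had 0 counts at 20 weeks and 310 counts at 10 weeks. A count of 0 allows up to 3 counts over that group. For zic1 and zic4, and for the genes of the next paragraphs, a change with age and a clip from another part of the fin cannot be told apart.

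Loci of tbx3, a T-box repressor gene with roles in limb patterning, went the other way. tbx3 Nfu_g_1_006786 had 5.55, 14.2 and 22.6 CPM at 20 weeks and 4.02, 5.59 and 9.45 CPM at 10 weeks (lowest, median, highest), and it was higher in 14 of 15 fish by 1.18 ± 0.10 (adjusted p = 1.19e-10). The exception was again LS5, with 5.55 CPM at 20 weeks and 6.99 CPM at 10 weeks, and without that fish the change was 1.3. A second locus, tbx3 Nfu_g_1_006367, rose by 1.02 ± 0.16 and had a change of -0.79 in LS5. Reads of loci that share a symbol can be exchanged, so values split between both tbx3 loci are less certain.

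Some other genes also had a small or negative change in LS5. ASIP, the agouti signalling protein, which antagonises melanocortin receptors and is expressed on the belly rather than the back of zebrafish, had 0.335, 0.873 and 3.18 CPM at 20 weeks and 0.0336, 0.320 and 0.950 CPM at 10 weeks. It was higher in 15 of 15 fish (1.53 ± 0.28, adjusted p = 0.000231), with small changes in LS5 (0.07), LS3 (0.17) and LS7 (0.21). rspo4, an enhancer of Wnt signalling, rose by 0.85 ± 0.23 over the group and had a change of -1.24 in LS5, while LS3 (0.01), LS4 (0.02) and LS43 (0.08) lay near 0. The developmental gene mab21l1 rose by 0.87 ± 0.16 with -0.42 in LS5, stxbp5l, a syntaxin-binding protein gene, rose by 1.43 ± 0.24 with -0.03, and the lectin receptor gene illr4 Nfu_g_1_012291 rose by 1.08 ± 0.18 with -0.07. These genes were picked after their values in LS5 were seen, and no test was made on that fish. Of the 1237 called loci, 1096 (88.6%) moved in LS5 in the direction of the group, a share raised by the presence of LS5 in the fit that called them. In LS10 that share was 68.6%, in LS4 73.5% and in LS7 75.6%, so single genes that oppose the group are found in other fish too. For collagens LS5 moved with the others: col1a1a changed by -1.49 in it.

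**Figure D2:**
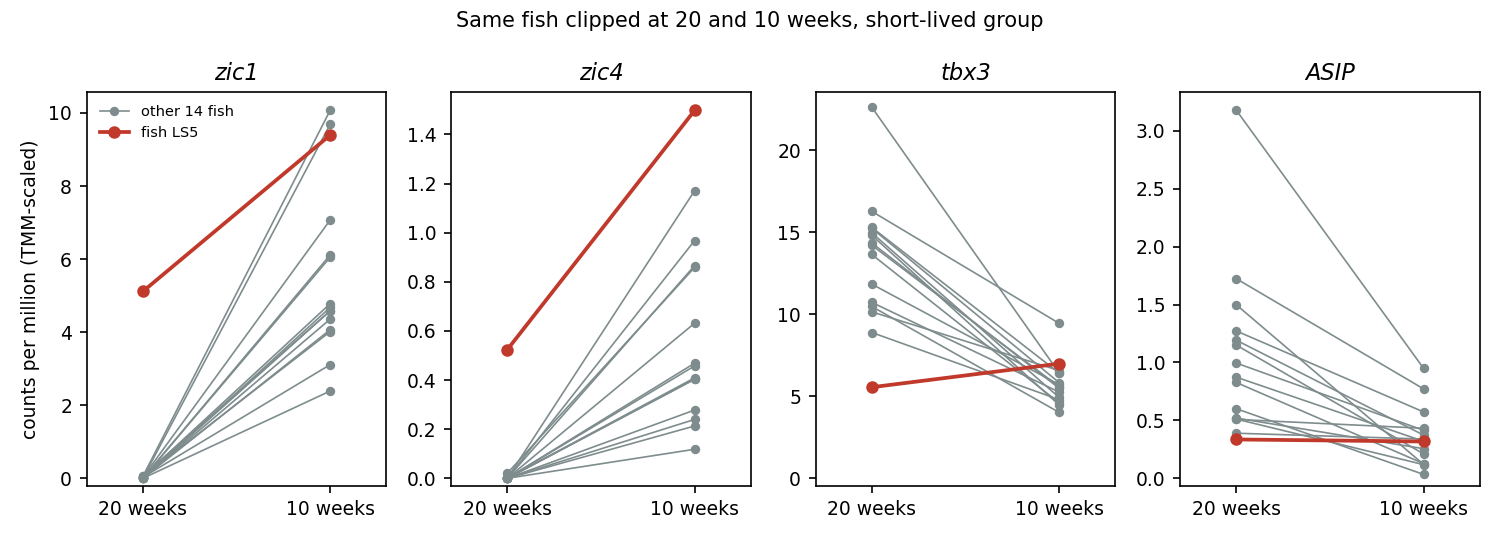
TMM-scaled CPM of zic1, zic4, tbx3 (Nfu_g_1_006786) and ASIP in each short-lived fish, with the 20-week clip on the left joined to the 10-week clip on the right and LS5 in red. In 14 fish zic1 drops to between 0 and 0.0647 CPM at 20 weeks, and LS5 alone keeps 5.11 CPM and shows no increase of tbx3.

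Of the 69 tested genes on the list for fin position and outgrowth, 2 rose (2.9%, against 2.58% of all loci) and 2 fell (2.9%, against 3.99%), and the list median was -0.01. The increases were both tbx3 loci, and the decreases were wnt10b, a Wnt ligand, with -0.79 ± 0.24 and hoxa11a with -0.29 ± 0.09, which was 0.06 in batch 2 fish alone. Without LS5 neither decrease was called, and without LS42 and LS45 5 members were called lower. The hox genes that mark the distal fin did not pass the test: hoxa13a had -0.14 ± 0.08, hoxa13b -0.02 ± 0.11, hoxc13a -0.28 ± 0.10 (adjusted p = 0.0771) and hoxc12a 0.07 ± 0.10. Outside the list, pitx1, a hindlimb transcription factor gene in mouse, rose by 0.67 ± 0.21, and pax1a (-1.58 ± 0.27), tbx15 (-0.82 ± 0.26) and alx4a Nfu_g_1_007996 (-0.54 ± 0.13), transcription factor genes of the axial skeleton and dermis, fell. The second locus alx4a Nfu_g_1_004037 had -0.16 ± 0.20 and was not called. Lower in 15 of 15 fish was also ttyh2, a membrane channel family gene, at 6.85 to 13.3 CPM at 20 weeks and 10.9 to 21.7 CPM at 10 weeks (-0.68 ± 0.08).

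Fibrillar collagens, the rope-like triple helices that give dermis and bone their tensile strength, were the list with the highest share of calls. Of 16 tested, 13 fell (81.2%, against 3.99% of all loci), none rose, and the median was -0.99. Summed over the 16, they made up 2719, 11060 and 19070 CPM at 20 weeks (lowest, median, highest) and 12040, 23890 and 36680 CPM at 10 weeks. The sum was lower in 14 of 15 fish, with the largest drop in LS6 (-2.74) and an increase in LS10 (0.32). The 3 loci that were not called, col5a2b Nfu_g_1_010961, COL27A1 (1 of 2) Nfu_g_1_017224 and col2a1a Nfu_g_1_001498, each share their symbol with a locus that was.

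The chains of type I collagen, the main collagen of skin and bone, carried most of that sum. col1a1a had 795, 3438 and 6042 CPM at 20 weeks and 4064, 7602 and 11850 CPM at 10 weeks, a change of -1.64 ± 0.27 (adjusted p = 6.84e-05). LS45 was the lowest at 20 weeks, and only LS10 had more at 20 weeks (4578 CPM) than at 10 weeks (4064 CPM), so the ranges overlap while 14 of 15 pairs go down. col1a1b fell by 1.63 ± 0.28 and col1a2 by 1.48 ± 0.25 on the log2 scale, with the same 14 fish. Minor fibrillar chains that set fibril width also fell: col5a1 by 0.99 ± 0.14, COL5A2 (1 of 2) by 0.98 ± 0.14 and col11a1b by 1.23 ± 0.18. The cartilage chain col2a1a Nfu_g_1_021016 had 6.03, 24.2 and 47.9 CPM at 20 weeks, against a median of 58.2 CPM and a lowest value of 20.1 CPM at 10 weeks (-1.42 ± 0.21). Per gene length, in the deposited RPKM, the mean levels at 20 and 10 weeks were 312 and 821 for col1a1a, 44.2 and 80.4 for col5a1, and 2.40 and 5.81 for col2a1a Nfu_g_1_021016.

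Among 44 other collagens 17 fell (38.6%, against 3.99% of all loci) and none rose, with a median of -0.55. col10a1, a short collagen of hypertrophic cartilage that zebrafish osteoblasts also make, had the deepest changes: col10a1 Nfu_g_1_015191 had 62.8, 829 and 1647 CPM at 20 weeks and 779, 2143 and 3244 CPM at 10 weeks (-1.84 ± 0.40), and col10a1 Nfu_g_1_022498 changed by -1.80 ± 0.44. The microfibril chains col6a1 (-0.99 ± 0.14) and col6a2 Nfu_g_1_020270 (-0.94 ± 0.15), the fibril-associated COL12A1 Nfu_g_1_015341 (-0.78 ± 0.13) and the basement membrane chains col15a1b Nfu_g_1_011494 (-0.81 ± 0.14) and col4a1 (-0.48 ± 0.11) were lower as well.

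Enzymes and chaperones that fold, trim and cross-link collagen moved with it. Of 49 tested, 24 fell (49.0%, against 3.99% of all loci), 1 rose, and the median was -0.48. Their sum was lower in all 15 fish, LS10 included. bmp1a Nfu_g_1_008999, the protease that trims the ends of procollagen, had 53, 144 and 241 CPM at 20 weeks and 172, 216 and 343 CPM at 10 weeks, lower in 15 of 15 fish by -0.75 ± 0.09 (adjusted p = 1.93e-07). The cross-linking enzyme tgm2b (-0.96 ± 0.14), the prolyl 3-hydroxylase lepre1 Nfu_g_1_020733 (-0.73 ± 0.12), the lysyl oxidase loxl4 Nfu_g_1_018261 (-0.87 ± 0.15) and the prolyl 4-hydroxylase subunit p4ha1b (-0.65 ± 0.13) fell. PCOLCE (2 of 2), a procollagen protease enhancer, rose by 0.56 ± 0.14, while PCOLCE (1 of 2) Nfu_g_1_005454 fell by 0.48 ± 0.10.

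Other matrix proteins gave 27 decreases (32.1%, against 3.99% of all loci) and 2 increases among 84 tested, with a median of -0.29. thbs2b, a thrombospondin of the cell surface and matrix, was at 0.0222, 0.260 and 0.647 CPM at 20 weeks and 0.394, 0.941 and 2.71 CPM at 10 weeks (-1.96 ± 0.25). Lower, too, were the small proteoglycans fmoda (-2.39 ± 0.44) and aspn (-0.99 ± 0.15), the elastic microfibril gene mfap2 (-1.07 ± 0.16), the elastin gene elnb (-1.14 ± 0.24) and sparc Nfu_g_1_004335 (-0.98 ± 0.15), which binds collagen and calcium. Tenascin C, a matrix protein of growing and healing tissue, was split: tnc Nfu_g_1_005495, tnc Nfu_g_1_008823 and tnc Nfu_g_1_014607 changed by -1.22, -1.14 and -1.24, and tnc Nfu_g_1_020406 by 1.31 ± 0.33. The other increase was fbln1 Nfu_g_1_001353 (1.31 ± 0.30), a fibulin. Of 51 matrix proteases and inhibitors, 8 fell (15.7%, against 3.99% of all loci) and none rose. The decreases included MMP19 Nfu_g_1_001580 (-1.17 ± 0.20), the enamelysin orthologue MMP20 (-2.18 ± 0.38), ADAMTS12 Nfu_g_1_003215 (-0.61 ± 0.12) and mmp9 (-0.58 ± 0.18).

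**Figure D3:**
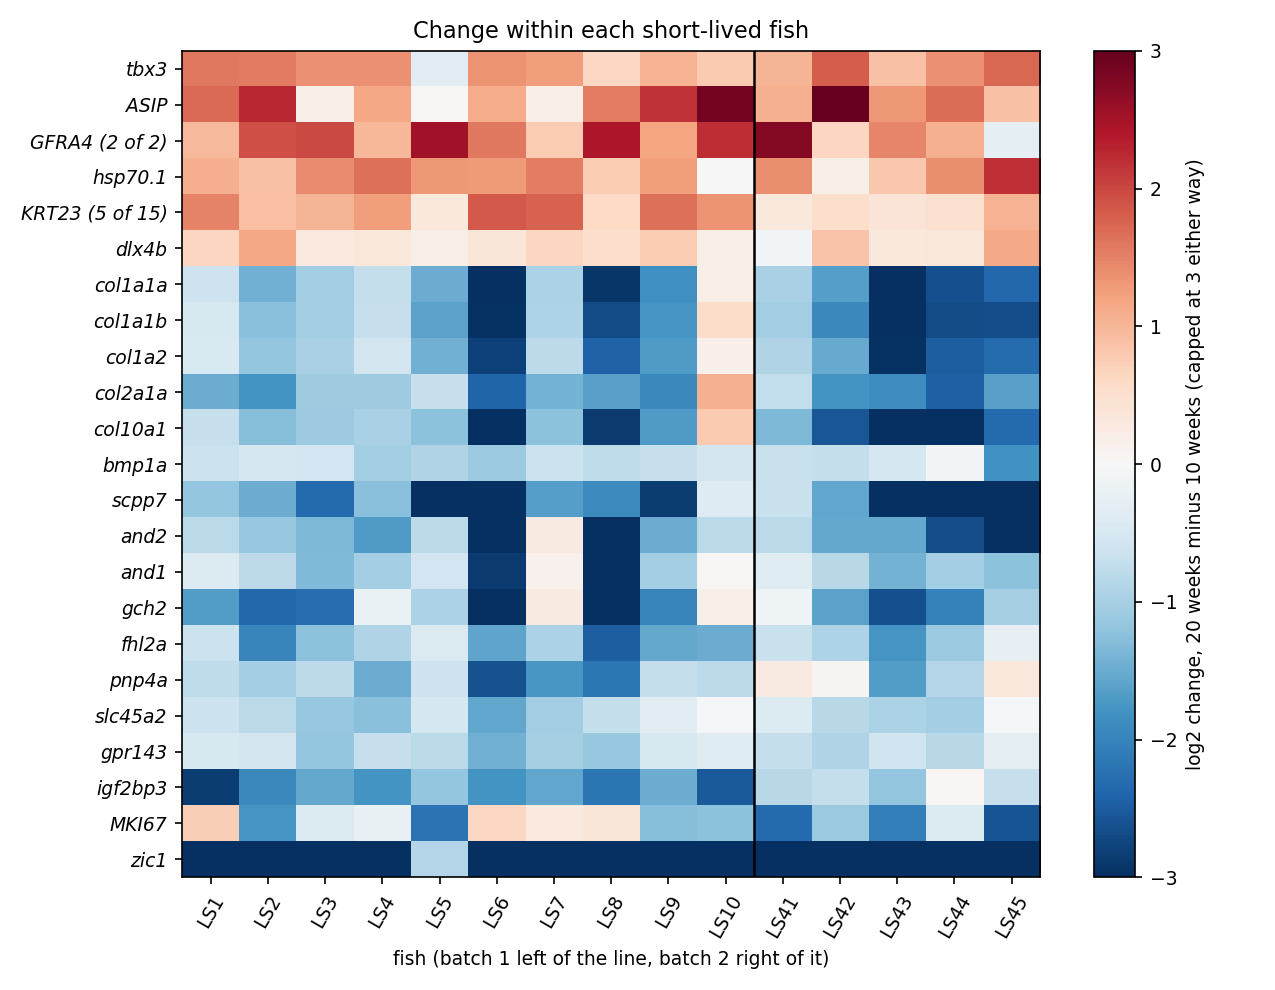
Log2 change of 23 genes (rows) between the clips of each fish (columns, batch 1 left of the line and batch 2 right of it), with red for higher and blue for lower at 20 weeks and colours capped at 3 either way. zic1 is dark blue in every fish but LS5, and LS10 has a change of 0.17 in col1a1a where the other 14 fish lie below 0.

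Genes of ray bone and of the fin margin were split. Of 43 tested, 10 fell (23.3%, against 3.99% of all loci), 4 rose (9.3%, against 2.58%), and the median was -0.09. scpp7, a secretory calcium-binding phosphoprotein of mineralised tissue, had 6.55, 276 and 877 CPM at 20 weeks and 188, 1031 and 2106 CPM at 10 weeks. It was lower in 15 of 15 fish by -2.37 ± 0.44 (adjusted p = 0.000392), and its relatives scpp5 (-1.36 ± 0.33) and scpp9 (-1.22 ± 0.24) fell with it. Of the actinodin genes, whose products form the actinotrichia in zebrafish, the 3 loci tested all fell: and1 by 1.02 ± 0.20, and2 by 1.56 ± 0.27 and and3 Nfu_g_1_004360 by 1.17 ± 0.20. and2 had 0.468, 4.91 and 10.5 CPM at 20 weeks and 4.47, 10.9 and 33.5 CPM at 10 weeks, and it was lower in every fish except LS7. The increases were dlx4b (0.51 ± 0.09) and dlx3b Nfu_g_1_023199 (0.27 ± 0.09), homeobox genes of skin appendages and the skeleton, the Hedgehog ligand gene ihha Nfu_g_1_017703 (0.54 ± 0.14) and mgp (0.98 ± 0.31), an inhibitor of calcification. Without LS42 and LS45, 1 of the list was called higher and 9 lower. Among 11 osteoclast genes 1 fell (9.09%, against 3.99% of all loci) and none rose, and bmp4, a bone growth factor gene, was at -0.01 ± 0.11.

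Among fish, the matrix change was uneven. The change in the 5 short-lived fish of batch 2 gave 381 calls (2.04% of loci, 138 higher, 0.74%, and 243 lower, 1.3%). That fit held the batch 2 fish of every lifespan group. In the like fit of batch 1, the 10 short-lived fish gave 816 calls (4.33%, 307 higher, 1.63%, and 509 lower, 2.7%). Fibrillar collagens called lower numbered 9 in batch 2 and 11 in batch 1, and the summed level changed by a median of -2.29 in batch 2 fish and -1.08 in batch 1 fish. For bone and fin ray genes the counts were 1 lower in batch 2 and 9 lower in batch 1, with medians of the summed change at -0.92 in batch 2 and -1.04 in batch 1. In 1 model with an age term per batch, no locus was called for batch 2 minus batch 1 by edgeR (3054 of 18749 with an unadjusted p under 0.05, smallest adjusted p = 0.0893) or by limma voom, whereas DESeq2 called 388. The smallest p with a symbol in that comparison included ATP6, a mitochondrial ATP synthase subunit (-0.80 ± 0.14), and snrk Nfu_g_1_013198, a kinase gene (1.48 ± 0.25). All 5 batch 2 fish had a lower sum of the 13 mitochondrially encoded subunits at 20 weeks, by a median of -0.58, and batch 1 fish a median change of 0.09. Alone, batch 2 gave 11 of the 13 as called lower, batch 1 none, and both together 1. LS42 and LS45 had the largest drops of that sum (-0.95 and -0.67). Over all fish, the list median was -0.23, and without those 2 fish it was -0.06 with none called.

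**Figure D4:**
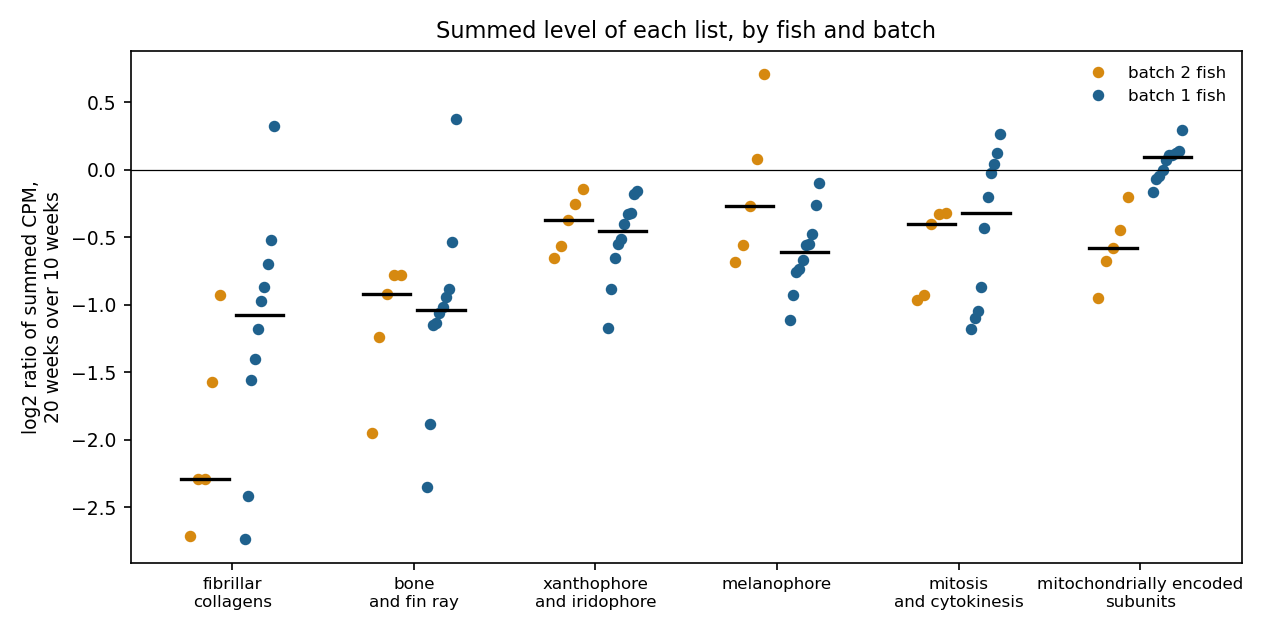
Log2 ratio of the summed CPM of 6 gene lists, 20 weeks over 10 weeks, in each short-lived fish (points) with the median of each batch (bars), batch 2 left of batch 1. Fibrillar collagens lie below 0 in every fish except LS10 (0.32), and the mitochondrially encoded subunits lie below 0 in all 5 batch 2 fish.

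The pigment cell genes formed the other large set of decreases. Of 24 melanophore genes, those of the black, melanin-making cells, 11 fell (45.8%, against 3.99% of all loci), none rose, and the median was -0.46. The melanosome receptor gpr143 had 18.9, 41.2 and 60.6 CPM at 20 weeks and 50.4, 62.6 and 89.0 CPM at 10 weeks, lower in 15 of 15 fish by -0.76 ± 0.10 (adjusted p = 5.3e-07). slc45a2 Nfu_g_1_017976, a transporter needed for melanin synthesis, was lower in 15 of 15 fish too (-0.75 ± 0.11), and oca2, another melanosome transporter, in 13 of 15 (-1.20 ± 0.19). The melanin synthesis enzymes tyr Nfu_g_1_000699 (-0.88 ± 0.15) and dct (-0.50 ± 0.12), the fibril protein pmela Nfu_g_1_021252 (-0.63 ± 0.13) and the survival receptor kita (-0.58 ± 0.13) fell. A second locus, pmela Nfu_g_1_014769, had a positive change, at 0.058 to 0.243 with each short-lived fish left out in turn. Within batches the count was 1 of 24 in batch 2 and 10 in batch 1, and the summed level was higher at 20 weeks in LS42 (0.08) and LS45 (0.71) and lower in the other 13 fish. Without LS42 and LS45 11 were called lower, with a median of -0.49. Without the fish block 4 were called lower, with a median of -0.44.

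Of 31 tested genes of xanthophores and iridophores, the yellow and the silvery pigment cells, 17 fell (54.8%, against 3.99% of all loci) and none rose, with a median of -0.41. Their summed level had a median of 2167 CPM at 20 weeks and 2937 CPM at 10 weeks, with highest values of 2797 and 3496 CPM, and the sum was lower in 15 of 15 fish. gch2, the first enzyme of pteridine pigment synthesis, had 38.1, 78.6 and 378 CPM at 20 weeks and 121, 288 and 622 CPM at 10 weeks (-1.58 ± 0.33, adjusted p = 0.00146). It was lower in 13 fish and slightly higher in LS7 and LS10. pnp4a, a purine enzyme gene that marks iridophores in zebrafish, fell by 0.97 ± 0.19, and the purine synthesis enzymes atic, paics Nfu_g_1_017928 and gart, which supply the guanine of reflecting platelets but also serve dividing cells, fell by 0.51 ± 0.10, 0.40 ± 0.08 and 0.33 ± 0.09. The list's smallest p was that of fhl2a Nfu_g_1_003707, a LIM domain gene, which was lower in 15 of 15 fish (-1.20 ± 0.17). Batch 2 alone gave 2 decreases and batch 1 alone 14, and the fit without the fish block gave 13.

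Most epidermal genes were not called, but the share called higher was above that of all loci. The main keratin krt5 Nfu_g_1_001437 took 7.66% to 17.9% of all counts at 20 weeks and 12.8% to 20.4% at 10 weeks, and its change of -0.17 ± 0.10 was not called. The epithelial markers tp63 (0.13 ± 0.08) and EPCAM (0.15 ± 0.06) were not called either. Of 51 keratin and desmosome genes 4 rose (7.84%, against 2.58% of all loci) and 1 fell (1.96%, against 3.99%), with a median of 0.12. KRT23 (5 of 15) Nfu_g_1_014183 had 1505, 2790 and 5193 CPM at 20 weeks and 845, 1311 and 2395 CPM at 10 weeks, higher in 15 of 15 fish by 0.99 ± 0.13 (adjusted p = 9.54e-07). The desmosome plaque genes pkp1 Nfu_g_1_010472 (0.35 ± 0.09) and pkp3 Nfu_g_1_008037 (0.29 ± 0.09) rose by less, and krt18 Nfu_g_1_001524, a keratin of simple epithelia, fell by 0.36 ± 0.10. KRT23 is 1 of 15 loci that share the symbol, and their reads can be exchanged.

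Genes of cell division had a negative median change, but most did not pass the test. Of 72 mitosis and cytokinesis genes 67 had a negative change and the median was -0.79. Of them 8 were called lower (11.1%, against 3.99% of all loci) and 1 higher (1.39%, against 2.58%). The condensin subunit smc4 had 16.6, 31.4 and 43.1 CPM at 20 weeks and 29.2, 47.0 and 66.4 CPM at 10 weeks, lower in 15 of 15 fish (-0.66 ± 0.14, adjusted p = 0.00152). The spindle kinase aurka (-0.70 ± 0.16), the spindle assembly factor tpx2 (-1.01 ± 0.29) and the kinetochore scaffold casc5 (-0.84 ± 0.22) fell, and cdc20 Nfu_g_1_007369, an activator of the anaphase ligase, rose by 0.75 ± 0.23. MKI67, the usual marker of cycling cells, had 2.55, 18.5 and 38.9 CPM at 20 weeks and 9.27, 28.2 and 70.9 CPM at 10 weeks, which missed the threshold (-0.90 ± 0.29, adjusted p = 0.0531). Fish differed: the summed level was higher at 20 weeks in 3 batch 1 fish and lower in the other 12. The number called lower was 30 without the fish block, 35 with DESeq2, 3 without LS5, 5 without LS42 and LS45, 14 in batch 2 alone and 0 in batch 1 alone. From the 30 libraries alone it was 10, and leaving out each fish in turn gave 1 (without LS2) to 31 (without LS1). Of 52 DNA replication genes 2 fell (3.85%, against 3.99% of all loci) and none rose, with a median of -0.57. The number called lower was 9 in batch 2 alone (median -1.21) and 0 in batch 1 alone (-0.20), 7 with DESeq2, and 0 without LS5, without LS42 and LS45 or from the 30 libraries alone.

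Single stress genes were called in both directions. The inducible chaperone hsp70.1 was higher in 15 of 15 fish, at 2.98, 10.3 and 55.4 CPM at 20 weeks and 1.99, 5.03 and 31.4 CPM at 10 weeks (1.16 ± 0.18, adjusted p = 3.75e-05), and LS10 was the fish with the smallest difference (0.01). Its constitutive relative hspa8l rose by 0.58 ± 0.11, while the chaperonin subunits cct7 and cct8 fell by 0.20 ± 0.06 and 0.23 ± 0.07. Of 38 cytosolic heat shock genes 1 rose (2.63%, against 2.58% of all loci) and 3 fell (7.89%, against 3.99%). The number called lower was 1 without LS42 and LS45, and 0 without the fish block or from the 30 libraries alone. The gene hsp70.1 is not on that list. GFRA4 (2 of 2), a receptor for glial growth factors, had 3.28, 12.1 and 28.3 CPM at 20 weeks and 1.77, 4.10 and 7.20 CPM at 10 weeks, higher in 14 of 15 fish (1.5 ± 0.24). The secreted glycoprotein gene myoc Nfu_g_1_009961 rose by 1.07 ± 0.22.

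Among decreases outside the lists, igf2bp3, an RNA-binding protein of embryonic and growing tissue, had 2.46, 5.24 and 13.1 CPM at 20 weeks and 9.06, 16.4 and 22.6 CPM at 10 weeks (-1.49 ± 0.17, adjusted p = 4.9e-08). It was lower in 14 of 15 fish, and the changes were -0.68 in batch 2 alone, where it missed the threshold, and -1.88 in batch 1 alone. phgdh, the first enzyme of serine synthesis, fell by 1.5 ± 0.25, and cd248b Nfu_g_1_005373, a surface protein of pericytes and fibroblasts, by 2.12 ± 0.40. Of 32 fatty acid oxidation genes 5 fell (15.6%, against 3.99% of all loci), including etfb (-0.35 ± 0.05, lower in 15 of 15 fish), acaa2 (-0.48 ± 0.10) and CPT1A (1 of 2) (-0.37 ± 0.10), which carries fatty acids into mitochondria. None of 74 cytosolic ribosomal proteins and none of 30 nuclear complex I subunits was called, and the medians of these lists were 0.08 and -0.08.

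Signalling lists were called at lower shares than the collagen and pigment lists, and some shares were above those of all loci. Of 73 Wnt genes 3 rose (4.11%) and 6 fell (8.22%): znrf3 Nfu_g_1_022273, a ligase that removes Wnt receptors, was higher in 15 of 15 fish (0.47 ± 0.08), and dkk3b (-0.48 ± 0.09, lower in 15 of 15), the Wnt enhancer rspo2 (-0.97 ± 0.19) and the receptor fzd8a Nfu_g_1_013067 (-0.84 ± 0.18) fell. Of 44 thyroid and retinoid genes 4 fell (9.09%, against 3.99% of all loci) and none rose, and 15 of the 44 had a positive change. The decreases were the retinoid binding proteins rbp1a (-1.17 ± 0.27), crabp2b (-0.46 ± 0.11) and CRABP2 (2 of 3) (-0.53 ± 0.10) and the thyroid hormone deiodinase dio1 Nfu_g_1_022655 (-1.34 ± 0.34). Of 108 ion pumps and channels 8 rose (7.41%) and 6 fell (5.56%), against 2.58% and 3.99% of all loci, and without the fish block 2 rose and 3 fell. The T-type calcium channel CACNA1H (1 of 2) Nfu_g_1_019665 was higher in 15 of 15 fish (0.99 ± 0.13).

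Of 43 interferon response genes 3 rose (6.98%, against 2.58% of all loci), the antiviral PARP9 (0.53 ± 0.11), PARP14 (0.38 ± 0.11) and the RNA sensor ifih1 (0.43 ± 0.12), and the median was 0.29. The number called higher was 6 with upper quartile factors, 7 from the 30 libraries alone and 9 with DESeq2. It was 3 without LS42 and LS45, 2 without the fish block, 2 in batch 1 alone and 0 in batch 2 alone, where 1 was called lower. In middle-lived and long-lived fish 0 were called, with list medians of 0.08 and 0.17. No locus was called for the difference in age change between short-lived fish and either group. Of 27 complement and acute phase genes 2 rose (7.41%), c3a Nfu_g_1_007235 (1.62 ± 0.30) and C4A (0.82 ± 0.24). In that list 1 fell (3.7%, against 3.99% of all loci), the inhibitor CFI Nfu_g_1_007944 (-1.0 ± 0.32, adjusted p = 0.0492). That decrease was not called with RLE or upper quartile factors, without LS5, without LS42 and LS45 or from the 30 libraries alone. Of 47 macrophage genes 1 rose (2.13%) and of 38 T and natural killer cell genes 2 rose (5.26%). Of 29 B cell genes none was called, and of 11 neutrophil genes 1 fell (9.09%). Of 23 hepatocyte genes 2 rose (8.7%) and none fell. The summed level of that list was 2075 to 4152 CPM at 20 weeks and 1931 to 2932 CPM at 10 weeks. Over all loci 2.58% rose and 3.99% fell, and in lists this short 1 or 2 calls are not read as a result. The summed level of the macrophage list was 1257 to 2907 CPM at 20 weeks and 1581 to 2627 CPM at 10 weeks, that of 43 skeletal muscle genes 249 to 461 CPM and 279 to 1545 CPM, and that of 58 nerve and Schwann genes 648 to 1092 CPM and 716 to 1069 CPM. Among endothelial genes 2 of 37 fell (5.41%, against 3.99% of all loci), s1pr1 (-0.79 ± 0.19) and prox1a Nfu_g_1_003605 (-0.86 ± 0.24). The part of these cell types in the collagen and pigment results was not tested.

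Set beside the fish that lived longer, the age change in short-lived fish showed no difference that passed the test, which does not show that the groups are alike. No locus was called for the change in short-lived minus that in long-lived fish by edgeR (315 of 18828 with an unadjusted p under 0.05), DESeq2 or limma voom, nor for short-lived minus middle-lived fish (267 by edgeR), and these percentages called are 0.0. The smallest p in the first comparison belonged to STAC Nfu_g_1_022802 (-1.62 ± 0.42), nxn (-0.50 ± 0.13) and zmynd8 Nfu_g_1_021458 (0.33 ± 0.10), with a smallest adjusted p of 0.995. For the second, mdh1a Nfu_g_1_002921, a locus with few counts at 10 weeks, had a difference of 1.74 ± 0.44.

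Within the separate groups, 1118 loci (5.94%) were called in middle-lived fish, 297 higher (1.58%) and 821 lower (4.36%), and 522 (2.77%) in long-lived fish, 182 higher (0.967%) and 340 lower (1.81%). Of the 485 loci called higher in short-lived fish, 175 were called higher in middle-lived fish (36.1% of the short-lived and 58.9% of the middle-lived calls) and 25.8% of them in long-lived fish, which is 68.7% of the long-lived increases. Of the 752 called lower, 468 were also called lower in middle-lived fish (62.2% and 57.0%) and 239 in long-lived fish (31.8% and 70.3%). None was called in the opposite direction. Called increases had a median of 0.47 in short-lived, 0.30 in middle-lived and 0.29 in long-lived fish, and called decreases medians of -0.64, -0.53 and -0.42. Since the calls were chosen in short-lived fish, these medians can be larger there by that choice alone.

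Single genes show the same overlap. col1a1a changed by -1.64 ± 0.27 in short-lived, -1.28 in middle-lived and -1.08 in long-lived fish, and the difference short-lived minus long-lived was -0.56 ± 0.37. For scpp7 the changes were -2.37 ± 0.44, -1.54 and -1.09, with a difference of -1.28 ± 0.61 that did not pass the test after adjustment. The changes of tbx3 Nfu_g_1_006786 were 1.18, 1.18 and 1.09. Of 16 fibrillar collagens, 13 were called lower in short-lived, 12 in middle-lived and 13 in long-lived fish, with medians of -0.99, -0.86 and -0.70. Of 72 mitosis genes 8, 26 and 18 were called lower, while the list medians were -0.79, -0.90 and -0.88. Over all loci 3.99%, 4.36% and 1.81% were called lower in these groups. In short-lived fish the number of mitosis genes called lower was 30 without the fish block and 35 with DESeq2.

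**Figure D5:**
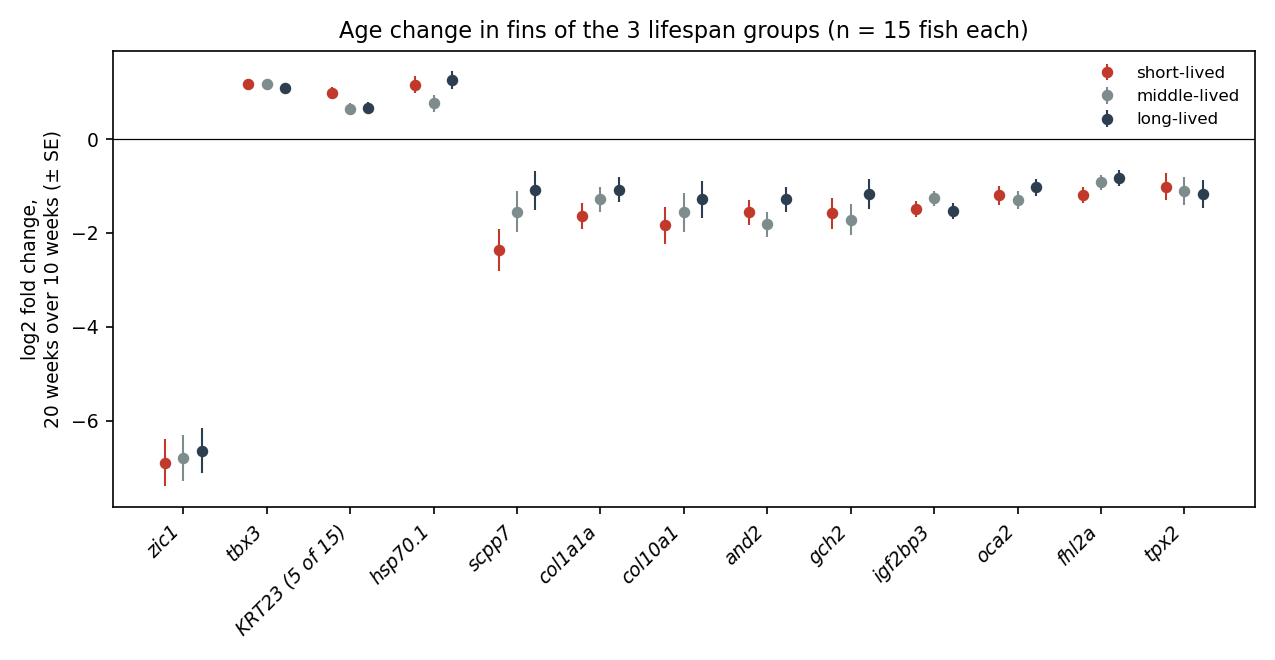
Log2 fold change, 20 weeks over 10 weeks, with standard error for 13 genes in short-lived, middle-lived and long-lived fish (15 fish each). tbx3 lies at 1.18, 1.18 and 1.09 in the 3 groups and col1a1a at -1.64, -1.28 and -1.08, and for both the error bars of neighbouring groups overlap.

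Within the short-lived group, fish died between 28.7 and 36.4 weeks, and the change between clips was tested for a trend over age at death with batch in the model. No locus was called by edgeR (172 of 18749 with an unadjusted p under 0.05), DESeq2 (216) or limma voom (187). Among the loci with the smallest p were atp1b2b, a sodium pump subunit (-0.30 ± 0.09 log2 units per week of age at death), and p4ha3, a prolyl 4-hydroxylase subunit (-0.24 ± 0.07).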

How the data were processed

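The authors deposited 1 table of read counts per locus and 1 of RPKM (reads scaled by gene length and library size) for the series. The counts were used for every test, and RPKM only where levels of different genes are set side by side. Per the submitters' processing notes, CASAVA 1.8.0 and 1.8.2 and bcl2fastq 1.8.4 made the reads, TopHat2 2.0.6 mapped them and featureCounts 1.4.3-p1 counted them. The genome build is not given in the sources used here. Libraries came from a TruSeq RNA kit, per the labels, and strand use in counting is not stated, so overlapping antisense genes cannot be told apart. Symbols are those of zebrafish best hits in the deposited table.

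A single model held all 90 fin libraries (45 fish), with 1 term per fish as replicate block and 1 age term per lifespan group. It used filterByExpr, TMM scaling and robust quasi-likelihood dispersions from edgeR (version 4.0.16, under R 4.3.3). The standard error is the log2 fold change over the root of the F statistic. Fish numbers in the titles pair the clips by animal. As a check, deviations of both clips of a fish from the group means correlated with a median of 0.281 (0.082 to 0.677, 14 of 15 above 0.1). Those of different fish of a batch had a median of -0.048 (-0.4 to 0.524), so the ranges overlap. In 8 of 15 fish the 20-week clip correlated best with the 10-week clip of the same fish. No 2 of the 30 libraries were copies (chi-square per degree of freedom at least 18.9). Alternatives were RLE or upper quartile factors, 2 filters, DESeq2 1.42.0, limma 3.58.1 (voom), no replicate block and short-lived fish alone. Others were each batch alone, with the fish of every lifespan group, and each fish left out. Fits without LS5, or without LS42 and LS45, were chosen after seeing the data. The scripts were tested on simulated data with known changes. Python 3.11.15 with pandas 2.3.3 and numpy 2.4.6 made the tables.

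The members were set by the sample titles, and the 61 gene lists were written with earlier results of these data known. No set test was run: lists are described by counts and medians. Named genes were the 12 largest called changes each way with a symbol, a mean log2 CPM of at least 2 and the same direction in 13 of 15 fish, up to 4 called members of each list with at least 10% called, and the smallest p of other comparisons. The other genes named were chosen after their values were seen.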

Additional observations from a re-analysis of the deposited data

How the results depend on the processing

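The number of loci called for the age change in short-lived fish was 1237 with fish as replicate block and 804 with no replicate block. It was 750 from the 30 libraries of short-lived fish alone. In fits that held every lifespan group it was 381 from batch 2 fish and 816 from batch 1 fish. RLE or upper quartile factors, both filters, DESeq2 and limma voom kept the count within 1.5 times. Leaving out each fish of the 30 libraries in turn gave 447 to 947, against 750 with all. The count moved by over 1.5 times without LS43 (447), LS6 (476), LS9 (488) or LS8 (496). With all other fin libraries kept, it was 1079 without LS5 and 1160 without LS42 and LS45. In long-lived fish DESeq2 called 913, against 522 by edgeR, and in middle-lived fish the fit with no replicate block called 698, against 1118 with it. For batch 2 minus batch 1, DESeq2 called 388 and edgeR 0. The differences between lifespan groups and the trend over age at death gave 0 in every alternative run. The cause of these differences was not tested, but the fits on fewer fish also have fewer samples.

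Of 160 called loci named in the text or by the rule, 43 missed the threshold with no replicate block, 119 of 159 in batch 2 alone, 56 in batch 1 alone, 25 without LS5 and 30 without LS42 and LS45, against 0 with DESeq2 and 3 with limma voom. In batch 2 alone 3 changed sign: hoxa11a (0.062), slc45a2 Nfu_g_1_017975 (0.117) and tfec (0.088). Loci near 3 counts, such as zic4 at 20 weeks, are limited by depth.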

Other observations

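The 4 largest increases by the naming rule were loci named only by a clone: CU459152.1 (2.02 ± 0.58), CR926130.2 Nfu_g_1_002256 (2.01 ± 0.53), CT583679.1 Nfu_g_1_015991 (1.66 ± 0.46) and CR936442.1 Nfu_g_1_004948 (1.55 ± 0.46), the last of which the deposited annotation calls similar to a viral envelope protein. Single fish spread widely in them: CR936442.1 Nfu_g_1_004948 lay between 0.0838 and 789 CPM at 20 weeks and between 0 and 280 CPM at 10 weeks, with higher values at 20 weeks in 13 of 15 fish. The naming rule kept only loci with the same direction in at least 13 of 15 fish, so that agreement was fixed by the choice.

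Of 122 RNA splicing genes 7 rose (5.74%, against 2.58% of all loci) and none fell, and the list median was -0.04. Among the increases were the splicing kinase gene clk4a (0.57 ± 0.14) and the splicing factor gene sf3b1 (0.28 ± 0.09). Without LS42 and LS45 the list had 3 called higher and 1 called lower, and in batch 1 alone none. Of 158 chromatin genes 4 rose (2.53%) and 5 fell (3.16%), which is no more than the 2.58% and 3.99% of all loci.

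One locus of cytosolic malate dehydrogenase, mdh1a Nfu_g_1_002921, rose by 2.51 ± 0.32 (adjusted p = 7.12e-07), at 0.0231, 0.486 and 2.26 CPM at 20 weeks and 0, 0.0484 and 0.475 CPM at 10 weeks, higher in 14 of 15 fish. Over the 15 fish it had 305 counts at 20 weeks and 49 at 10 weeks, so its 10-week level lies near the limit set by depth. The second locus, mdh1a Nfu_g_1_013854, lay between 84.2 and 154 CPM at 20 weeks and between 92.9 and 163 CPM at 10 weeks and was not called (-0.08 ± 0.06). Reads of loci that share a symbol can be exchanged, so the change of the first locus is less certain. In the 40 skin libraries the first locus lay between 4.17 and 148 plain CPM. Those libraries also held muscle RNA, with mylpfa at 4073 to 26680 plain CPM, and the source of their mdh1a reads was not tested.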
